A study of Homo sapiens with 9 samples.

Results

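Interferon-stimulated genes are the genes that cells switch on when they sense interferon or viral nucleic acid. A set of 46 of them was listed by name, with earlier results of these data known but with no threshold on a measured value, and each symbol was matched to a row of the deposited expression table. All 46 were found, out of 13745 genes in the table. They were read in fibroblasts driven into senescence by an oncogenic RAS protein, and in the same cells carrying knockdowns that were studied as senescence bypass.

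Type I interferons bind a receptor at the cell surface whose kinases activate a transcription factor complex that holds STAT2 and IRF9. That complex binds a short DNA element, the interferon-stimulated response element or ISRE, in the promoters of its target genes. The products of these genes bind or cut viral RNA, block viral entry, modify proteins or sense nucleic acid, and in senescent fibroblasts the same programme is known as a late response to DNA in the cytoplasm.

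RNA was measured by polyA RNA-seq, made with a TruSeq kit, in BJ cells, which are human skin fibroblasts immortalised with telomerase. The 9 libraries form 5 groups. Knockdown of lncRNA-OIS1, a long non-coding RNA, together with activation of RASG12V was represented by 4 libraries, each with its own short hairpin RNA (hairpins 32-2, 32-3, 32-8 and 32-9, here replicates 1 to 4). Knockdown of p53 together with RASG12V activation had 1 library, and so did knockdown of BRD7, a bromodomain protein, with RASG12V activation. Senescent cells had RASG12V activated and carried a non-targeting hairpin, 500 in replicate 1 and 507 in replicate 2. The control carried non-targeting hairpin 500 without RAS activation and had 1 library. The labels give a 14 day 4-OHT treatment to every library, the control included, whereas the series describes that control as not treated. The 4 hairpins are different reagents, no label says whether libraries came from separate cultures, and p-values therefore measure only the spread between these libraries.

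Values are normalised read counts. Their normalisation made the libraries identical in distribution: each summed to 14916466.5, had 340.1 as its median and 20 as its lowest value, which 1375 genes (10.0%) shared. Sequencing depth is thus unknown. BRD7 stood at 94.6 in the BRD7 knockdown and between 536.6 and 695.3 in the other libraries. CDKN1A, a direct p53 target that encodes the p21 cell cycle inhibitor, stood at 2721.1 in the p53 knockdown, against 18745.7 and 22372.6 in senescent cells. All 8 fibroblast markers looked up were in the table, and their summed level was 151706.8 to 199976.6 in the 6 knockdown libraries, 119066.7 and 136705 in senescent cells and 416022.2 in the control. The log2 difference, senescent minus control, was below 0 for 6 of the 8 and above 0 for 2, VIM and S100A4. VIM stood at 55498.9 and 48419.6 in senescent cells and 39745.4 in the control, and S100A4 at 11723.8 and 10996.7 against 6416.8. Of 10 leukocyte, 6 endothelial and 6 epithelial markers, 2, 1 and 2 were in the table. The defining leukocyte marker PTPRC was at the floor in every library but the control, where it stood at 156.6. The other leukocyte marker, CD14, ran the other way, at 143.9 and 115.2 in senescent cells, 39.9 in the control and 25.1 to 117.7 in the knockdowns. The summed leukocyte level was 45.1 to 137.7 in the knockdowns, 135.2 and 163.9 in senescent cells and 196.5 in the control. The part of these markers in the results was not tested. In bulk RNA, fewer cells with high expression and less RNA per cell cannot be told apart.

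Promoter sequences show how the DNA near these genes relates to the interferon pathway. They were taken from RefSeq (build GRCh38.p14) as 250 bases before to 50 bases after the annotated start, and 36 of the 46 genes had an entry. The ISRE was searched on both strands as GAAANNGAAA, and its shorter form with a single base between the repeats as GAAANGAAA. The first occurred in 21 of 36 promoters (58.3%), beside 308 of 10566 promoters of genes in the expression table (2.92%). The shorter form occurred in 12 of 36 (33.3%), beside 281 of 10566 (2.66%), and either form in 26 of 36 (72.2%), beside 551 of 10566 (5.21%). In 6 of the 12 promoters a match to the shorter form overlapped a match to the longer one. TTCNNNGAA, the letters of the element used by type II interferon, occurred in 10 of 36 promoters (27.8%) and in 6.51% of the promoters of table genes. The 5 promoters printed here belong to genes with large differences between the groups, and capitals mark matches to either ISRE form on either strand. IFIT1 and OAS3 hold 2 matches to the longer form, NMI 1 match to each form, OAS1 only the shorter form and STAT2 neither.
IFIT1 promoter, chr10:89392373-89392672, plus strand: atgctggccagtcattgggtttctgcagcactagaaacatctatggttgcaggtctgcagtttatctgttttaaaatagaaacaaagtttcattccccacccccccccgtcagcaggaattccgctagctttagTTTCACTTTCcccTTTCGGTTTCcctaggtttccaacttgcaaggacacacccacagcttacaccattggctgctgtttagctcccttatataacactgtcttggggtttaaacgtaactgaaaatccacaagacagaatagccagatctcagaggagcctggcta
NMI promoter, chr2:151289619-151289918, minus strand: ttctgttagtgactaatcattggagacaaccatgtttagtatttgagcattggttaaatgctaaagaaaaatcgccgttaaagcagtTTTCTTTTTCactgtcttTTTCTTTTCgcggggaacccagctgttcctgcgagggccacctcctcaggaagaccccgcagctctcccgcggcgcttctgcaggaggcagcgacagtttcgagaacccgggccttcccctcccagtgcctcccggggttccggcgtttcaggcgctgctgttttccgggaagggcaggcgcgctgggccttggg
OAS3 promoter, chr12:112938224-112938523, plus strand: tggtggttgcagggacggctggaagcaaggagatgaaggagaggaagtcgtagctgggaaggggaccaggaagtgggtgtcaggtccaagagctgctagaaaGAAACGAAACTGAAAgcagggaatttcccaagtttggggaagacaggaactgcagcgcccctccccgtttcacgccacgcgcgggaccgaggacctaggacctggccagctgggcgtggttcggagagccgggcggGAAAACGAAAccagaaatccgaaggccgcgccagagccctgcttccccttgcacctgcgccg
OAS1 promoter, chr12:112906712-112907011, plus strand: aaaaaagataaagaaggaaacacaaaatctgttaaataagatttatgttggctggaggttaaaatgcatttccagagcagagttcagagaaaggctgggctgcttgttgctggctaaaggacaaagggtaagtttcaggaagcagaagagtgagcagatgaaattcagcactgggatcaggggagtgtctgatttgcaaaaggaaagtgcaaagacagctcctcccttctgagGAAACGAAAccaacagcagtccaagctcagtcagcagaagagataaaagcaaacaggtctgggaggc
STAT2 promoter, chr12:56360058-56360357, minus strand: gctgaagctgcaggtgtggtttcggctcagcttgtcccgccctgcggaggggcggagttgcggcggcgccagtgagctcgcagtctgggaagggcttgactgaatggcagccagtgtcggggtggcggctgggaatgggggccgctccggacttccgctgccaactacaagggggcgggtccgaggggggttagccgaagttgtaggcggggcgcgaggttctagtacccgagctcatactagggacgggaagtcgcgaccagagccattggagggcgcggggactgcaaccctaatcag
The 2 matches of IFIT1 begin 116 and 103 bases before the annotated start. In OAS3 the matches to the longer form begin 143 and 12 bases before the start, and the shorter form, beginning at 148, overlaps the first of them. NMI carries the longer form 163 bases and the shorter form 145 bases before the start, and OAS1 carries the shorter form 17 bases before it. RSAD2 had the most matches to the shorter form, 4. A match is a string of letters in a window of this length and not a measured binding site.

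Of the 46 genes, 44 entered the test, because their highest value reached 40 in at least 1 library. IFI44L was at the floor of 20 in all 9 libraries. IFI27 stood at 32.7, 20, 20 and 23.2 with lncRNA-OIS1 knockdown, 20 with p53 knockdown, 28.9 with BRD7 knockdown, and 20 in the senescent libraries and the control. CMPK2 and IRF9 reached 40 in 1 group each, and MX1, MX2 and RSAD2 in 2, so these entered only through the groups where they were high. A gene was called when its adjusted p (limma, Benjamini-Hochberg over 12481 genes) was under 0.05.

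Senescent cells had less RNA of many interferon-stimulated genes than the control. The genes called lower in senescent cells were 9 of 44 (IFIT1, IFIT2, NMI, OAS3, STAT2, XAF1, MX2, MX1 and DTX3L), where 7.1% of all genes tested were called lower. None was called higher, where 7.95% of all genes were. At an unadjusted p under 0.05 there were 17 of 44, beside 33.7% of all genes. MX1 and MX2, both called lower, entered the test only through the control and the BRD7 knockdown, where they were high. Among the 35 genes with a mean of 80 or more, which leaves out both, 7 were called lower, beside 7.17% of all genes so filtered. Both senescent libraries lay below the control for 32 of 44 genes, beside 42.8% of all genes, and above it for 4 (DDX58, TRIM22, UBE2L6 and USP18), beside 48.1%. The median log2 difference, senescent minus control, was -0.53 over the 44 genes and 0.03 over all genes. The control is a single library, and its spread was taken from the replicated groups. Without senescent replicate 1, and likewise without senescent replicate 2, 0 of the 44 were called, beside 1.1% and 0.994% of all genes. Without lncRNA-OIS1 knockdown replicate 4, 17 were called lower, beside 13.5% of all genes.

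Knockdown of lncRNA-OIS1 under RAS activation went with higher values of most of these genes than in senescent cells, and 0 of 44 were called in limma, as were 0% of all genes. At an unadjusted p under 0.05 there were 20 of 44, beside 22.5% of all genes. All 4 knockdown libraries lay above both senescent libraries for 20 of 44 genes, beside 17.1% of all genes, and below both for 1 (IFITM3), beside 21.5%. The median log2 difference, lncRNA-OIS1 knockdown minus senescent, was 0.56, beside -0.02 over all genes, and 36 of 44 differences were above 0, beside 47% of all genes. OAS1, OASL, IRF9, MX1, MX2, BST2, RSAD2 and CMPK2, 8 of the 44, sat at the floor in both senescent libraries. They could not lie below senescent cells. CMPK2 entered the test only through the lncRNA-OIS1 knockdown, RSAD2 through it and the BRD7 knockdown, and OASL through the 3 knockdown groups. The place of these genes in the counts of this paragraph thus follows in part from the floor and the filter. Without lncRNA-OIS1 knockdown replicate 4, OAS3, HERC5 and MX1 were called higher, 3 of 44 beside 0.641% of all genes. Leaving out replicate 1, 2 or 3 instead gave 0 of 44 called, beside 0%, 0.00801% and 0% of all genes. MX1 was among the genes at the senescent floor and entered the test only through the control and the BRD7 knockdown. The smallest p that an exact permutation test of a single gene can reach with 4 against 2 libraries is 0.0667.

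Knockdown of p53 gave a mixed picture. NMI was the only gene of 44 called higher than in senescent cells, beside 2.27% of all genes, and 0 were called lower, beside 1.57%; by unadjusted p under 0.05 there were 10 of 44, beside 26.3% of all genes. The p53 knockdown library lay above both senescent libraries for 25 of 44 genes, beside 43.4% of all genes, and below both for 13, beside 45%. The 8 genes at the floor in both senescent libraries could not lie below them. The median log2 difference, p53 knockdown minus senescent, was 0.11, and it was 0.00 over all genes. NMI was not called without either senescent library or without any one of lncRNA-OIS1 knockdown replicates 1 to 3, and 0 of 44 were called in each of those fits. Without lncRNA-OIS1 knockdown replicate 4, 5 were called higher (OAS3, NMI, OASL, HERC5 and SAMD9), beside 8.37% of all genes, and 3 were called lower (TRIM22, IFITM3 and STAT2), beside 8.82%.

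Knockdown of BRD7 had the highest value of the 9 libraries for 15 of the 44 genes, while the control was highest for 12. How often each library was highest over all genes was not counted. These counts therefore do not set the 44 genes apart from other genes. The BRD7 knockdown library lay above both senescent libraries for 40 of 44 genes, beside 40.1% of all genes, and below both for 4 (TRIM22, IFITM3, PML and UBE2L6), beside 45.4%. IRF9 entered the test only through this library, and MX1, MX2 and RSAD2 through it and 1 other group. These genes sat at the floor in both senescent libraries. Their place in this count and in the count by unadjusted p below thus follows in part from the filter. The median log2 difference, BRD7 knockdown minus senescent, was 0.83, beside -0.02 over all genes. In limma 0 of 44 were called, as were 0% of all genes in the higher direction and 0.00801% in the lower; at an unadjusted p under 0.05 there were 21 of 44, beside 13.9% of all genes. Without lncRNA-OIS1 knockdown replicate 4, 0 of 44 were called, beside 0.024% of all genes called higher and 0.0401% called lower.

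All 3 knockdowns were set against the same 2 senescent libraries, so their differences share that reference. Each of the 6 knockdown libraries lay above both senescent libraries for 19 of 44 genes, beside 14.7% of all genes, and below both for 1 (IFITM3), beside 18.6%. OAS1, OASL and MX1 were among the 19. Their senescent values were all 20, the floor, so no library could lie below those values. OASL reached the entry value only in knockdown groups, and MX1 stood at just 20.1 with p53 knockdown. The count of 19 thus follows in part from the floor and the filter. Without lncRNA-OIS1 knockdown replicate 4, the library with the fewest genes above senescent within its group, the count above both senescent libraries was 22 of 44, beside 18% of all genes. Leaving out a library can only keep or raise such a count, so the change from 19 to 22 tests nothing.

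**Figure D1:**
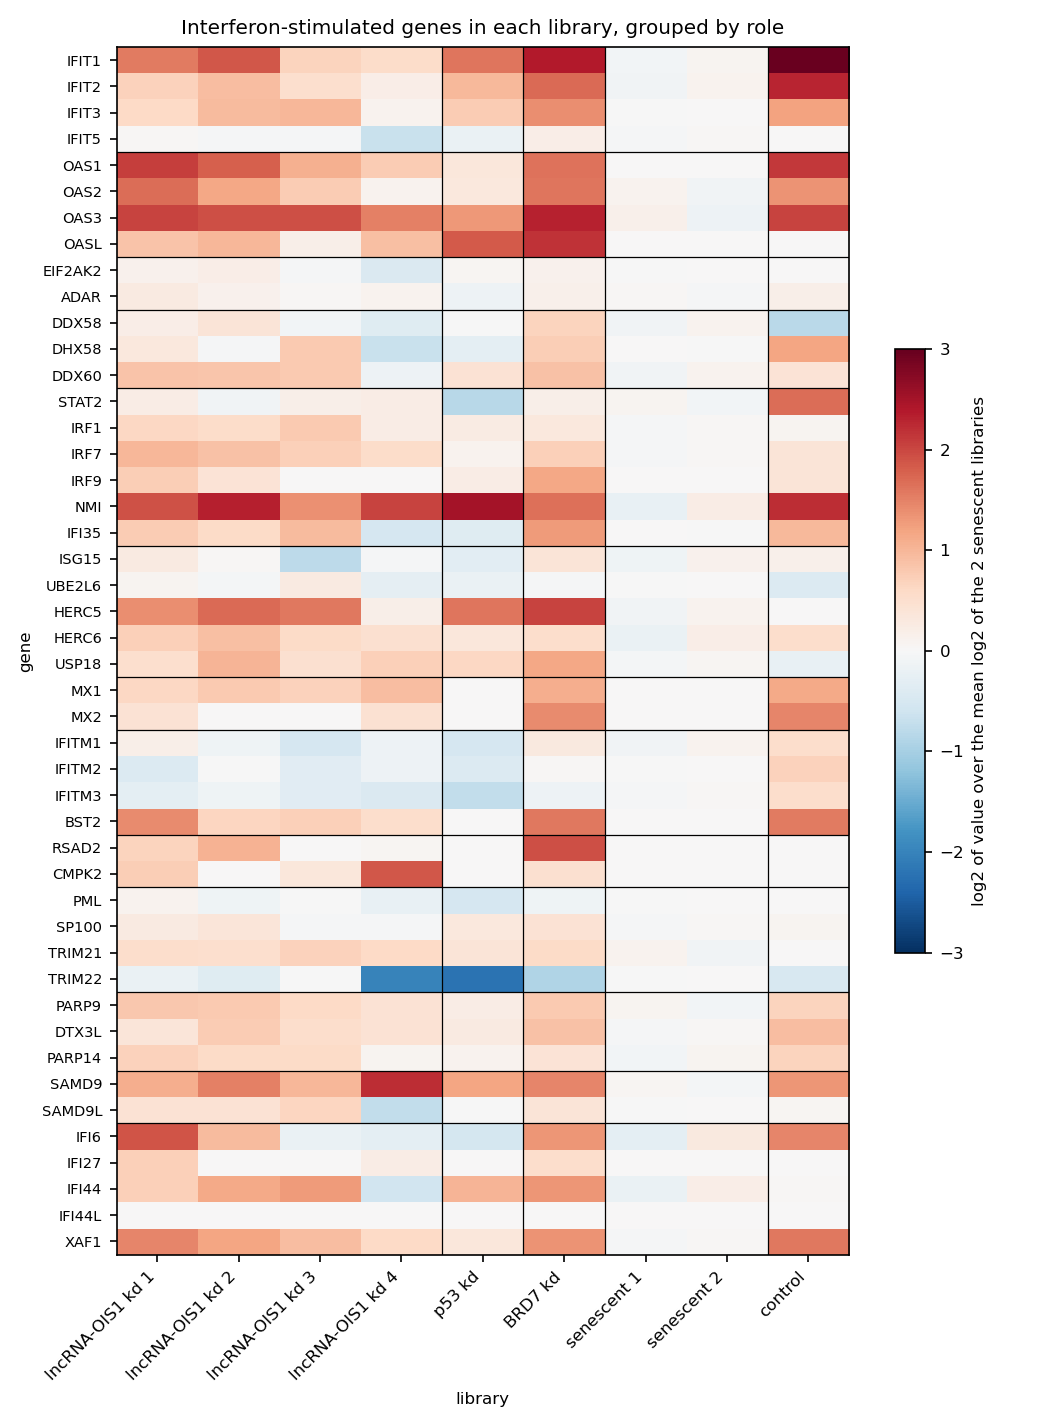
Heat map of all 46 interferon-stimulated genes (rows, grouped by role) in the 9 libraries (columns); colour is log2 of the value over the mean log2 of the 2 senescent libraries, red for higher and blue for lower. The lncRNA-OIS1 knockdown replicate 1, BRD7 knockdown and control columns are mostly red, TRIM22 is blue in 5 of 6 knockdown columns, and IFI44L is blank because it sat at the floor in every library.

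The IFIT proteins bind viral RNA that lacks the cap marks of the host and block its translation. IFIT1 stood at 323.8, 399.2, 173.9 and 159.1 in lncRNA-OIS1 knockdown replicates 1 to 4, 334.4 in the p53 knockdown and 567.9 in the BRD7 knockdown, against 102.7 and 116.6 in senescent cells and 854.2 in the control. Every knockdown library was above both senescent libraries and below the control. IFIT1 fell by 2.96 ± 0.60 on the log2 scale in senescent cells relative to the control (SE; adjusted p = 0.0326), the largest difference of the 44 genes in that comparison. Its log2 difference from senescent cells was 1.16 ± 0.43 with lncRNA-OIS1 knockdown (adjusted p = 0.192), 1.61 ± 0.60 with p53 knockdown (adjusted p = 0.166) and 2.38 ± 0.60 with BRD7 knockdown (adjusted p = 0.204). IFIT2 stood at 224.2, 264.6, 196.2 and 158.2 with lncRNA-OIS1 knockdown, 272.2 with p53 knockdown and 448.4 with BRD7 knockdown, against 128.7 and 149 in senescent cells and 677.3 in the control. Again every knockdown library lay between the senescent libraries and the control, and IFIT2 was lower than in the control by called differences both in senescent cells (-2.29 ± 0.32, adjusted p = 0.0141) and with lncRNA-OIS1 knockdown (-1.71 ± 0.29, adjusted p = 0.023). IFIT3 stood at 794.7, 1008.7, 1050.1 and 562.3 with lncRNA-OIS1 knockdown, 891.4 with p53 knockdown and 1391.8 with BRD7 knockdown, against 525.3 and 526.6 in senescent cells and 1218.1 in the control. Its difference between senescent cells and the control was not called (-1.21 ± 0.38, adjusted p = 0.0858). IFIT5 stood between 849.2 and 897.6 in lncRNA-OIS1 knockdown replicates 1 to 3, at 552.9 in replicate 4, 763.7 with p53 knockdown and 997.8 with BRD7 knockdown, against 853.9 and 889.4 in senescent cells and 871.7 in the control. IFIT5 passed the test in no comparison.

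The OAS proteins respond to double-stranded RNA, and OAS1, OAS2 and OAS3 make a messenger that activates an RNA-cutting enzyme, while OASL lacks that activity. OAS3 stood at 730.6, 683.1, 681 and 511.9 with lncRNA-OIS1 knockdown, 439.3 with p53 knockdown and 896.2 with BRD7 knockdown, against 200.4 and 161.1 in senescent cells and 734 in the control. The senescent libraries were the lowest by a wide gap, with no overlap with any other group. OAS3 fell by 2.03 ± 0.26 in senescent cells relative to the control (log2, adjusted p = 0.0108). Against senescent cells its log2 difference was 1.85 ± 0.18 with lncRNA-OIS1 knockdown (adjusted p = 0.0788), 1.29 ± 0.26 with p53 knockdown (adjusted p = 0.0568) and 2.32 ± 0.26 with BRD7 knockdown (adjusted p = 0.196). Leaving out lncRNA-OIS1 knockdown replicate 4 gave called differences for both the lncRNA-OIS1 knockdown (1.96, adjusted p = 0.0389) and the p53 knockdown (1.29, adjusted p = 0.0316). OAS1 stood at 84.6, 69, 41.8 and 33.7 with lncRNA-OIS1 knockdown, 25.3 with p53 knockdown and 61.6 with BRD7 knockdown, while both senescent libraries were at the floor of 20 and the control at 87.4. OAS1 was thus at least 4.37-fold lower in senescent cells than in the control, and at least 3.08-fold higher with BRD7 knockdown than in senescent cells, with adjusted p of 0.061 and 0.305. OAS2 stood at 268.3, 185.4, 141.9 and 89.7 with lncRNA-OIS1 knockdown, 104.7 with p53 knockdown and 252.7 with BRD7 knockdown, against 89.9 and 77.6 in senescent cells and 213.6 in the control. Replicate 4 of the lncRNA-OIS1 knockdown fell within the senescent range for OAS2 and the other 3 were above it. OASL was at the floor in senescent cells and in the control, and stood at 36.2, 40.2, 22.7 and 37.6 with lncRNA-OIS1 knockdown, 71.6 with p53 knockdown and 89.8 with BRD7 knockdown. Relative to the floor, OASL was at least 3.58-fold higher with p53 knockdown and at least 4.49-fold higher with BRD7 knockdown, and neither was called (adjusted p = 0.0571 and 0.196).

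**Figure D2:**
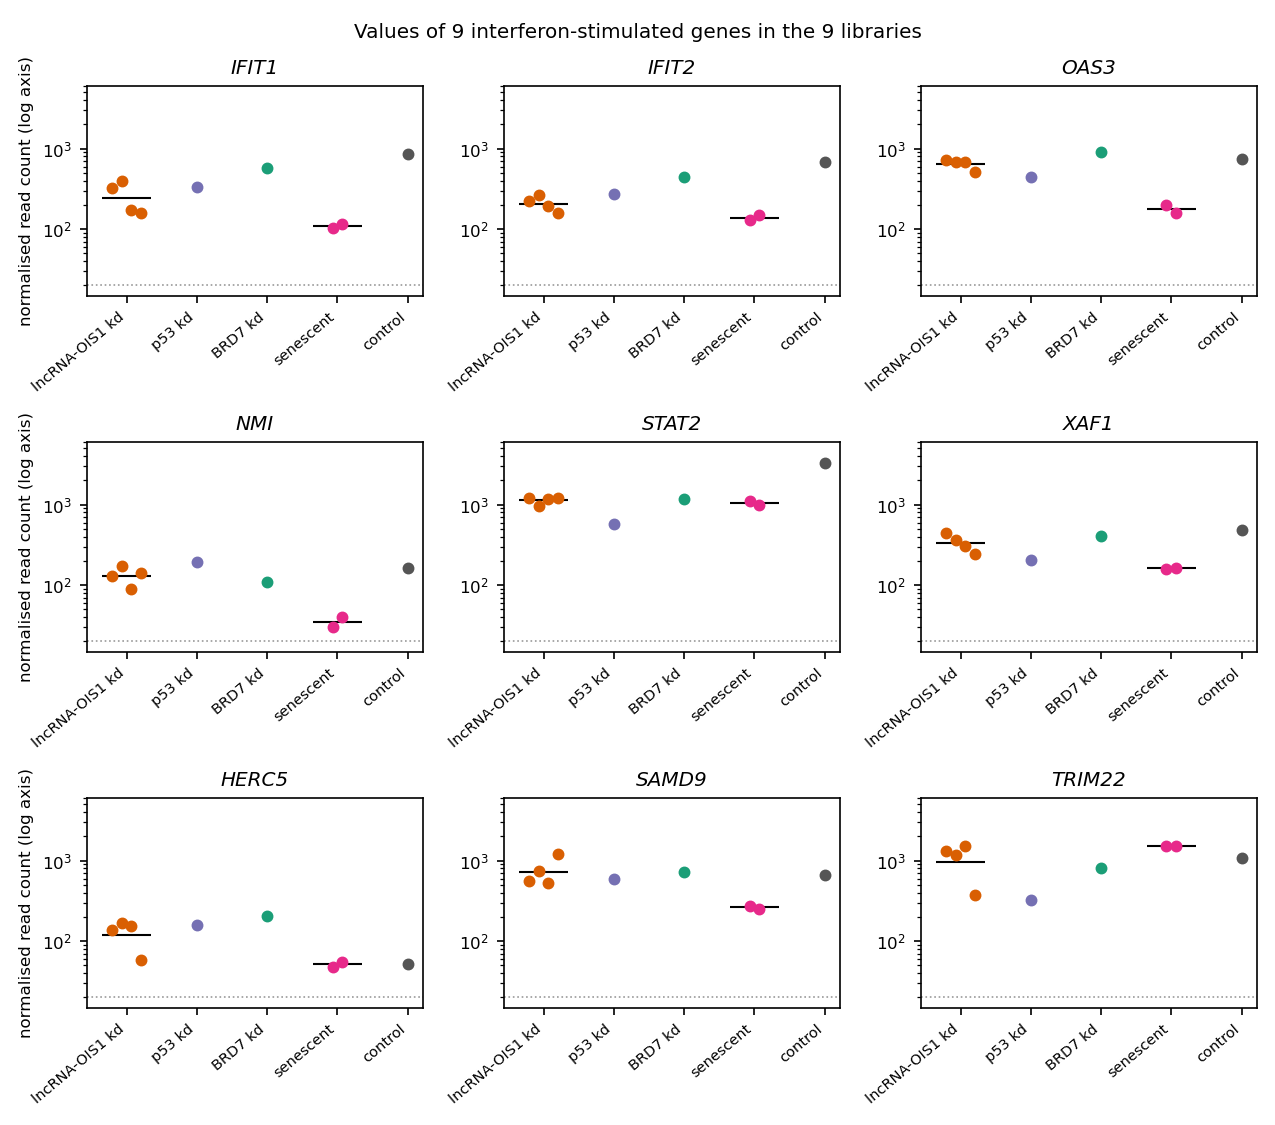
Values of 9 interferon-stimulated genes by group (vertical log axis, normalised read count; each point is a library, the line is the mean of a replicated group, and the dotted line is the floor of 20). In IFIT1, IFIT2, OAS3, NMI, XAF1 and SAMD9 the 2 senescent points are the lowest, whereas in TRIM22 they are the highest apart from overlap with lncRNA-OIS1 knockdown replicate 3.

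Among the transcription factors and their partners, STAT2, the partner of IRF9 in the factor complex that reads the ISRE, stood at 1210.8, 966.4, 1177.1 and 1214.9 with lncRNA-OIS1 knockdown, 578.9 with p53 knockdown and 1172.9 with BRD7 knockdown, against 1101.9 and 979.1 in senescent cells and 3298.1 in the control. Every library with RAS activation was far below the control, and the p53 knockdown was the lowest. Relative to the control, STAT2 fell by 1.67 ± 0.18 in senescent cells (log2, adjusted p = 0.00721) and fell by 1.54 ± 0.16 with lncRNA-OIS1 knockdown (adjusted p = 0.00576). The log2 difference between p53 knockdown and senescent cells was -0.84 ± 0.18 (adjusted p = 0.0612), and that between lncRNA-OIS1 knockdown and senescent cells was 0.13 ± 0.13 (adjusted p = 0.588). IRF9 was at or close to the floor, at 33.1, 26.7, 20 and 20 with lncRNA-OIS1 knockdown, 23.2 with p53 knockdown and 44.7 with BRD7 knockdown, against 20 in both senescent libraries and 26.2 in the control. IRF7, which carries the interferon response forward by driving interferon genes, stood at 100.9, 92.9, 82.8 and 73.1 with lncRNA-OIS1 knockdown, 54.4 with p53 knockdown and 82.8 with BRD7 knockdown, against 48.7 and 51.8 in senescent cells and 65.3 in the control. All 4 lncRNA-OIS1 knockdown libraries were above the senescent libraries and above the control (0.79 ± 0.17 against senescent, adjusted p = 0.0895). IRF1, a factor that interferon and inflammatory signals induce, was above senescent cells and control in all 6 knockdown libraries, with 514.2, 489.6, 580.4 and 392.8 with lncRNA-OIS1 knockdown, 402 in the p53 knockdown and 423 in the BRD7 knockdown, against 328.9 and 345.2 in senescent cells and 356.9 in the control.

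NMI and IFI35 are interferon-induced proteins that bind each other. NMI stood at 130.2, 174.1, 89.7 and 141.7 with lncRNA-OIS1 knockdown, 195.1 with p53 knockdown and 110 with BRD7 knockdown, against 29.9 and 40.6 in senescent cells and 161.9 in the control. Senescent cells were the lowest without overlap, and the p53 knockdown was the highest of the 9 libraries. NMI fell by 2.22 ± 0.42 in senescent cells relative to the control (log2, adjusted p = 0.028) and rose with p53 knockdown by 2.49 ± 0.42 relative to senescent cells (adjusted p = 0.0476). Its difference with lncRNA-OIS1 knockdown, 1.90 ± 0.30, was the largest of the 44 genes in that comparison and was not called (adjusted p = 0.0788). The call with p53 knockdown held in 5 of 13 alternative settings, with adjusted p of 0.036 to 0.279. IFI35 stood at 395.2, 346.1, 449.6 and 164.1 with lncRNA-OIS1 knockdown, 179.4 with p53 knockdown and 558.2 with BRD7 knockdown, against 233.9 and 229 in senescent cells and 455.1 in the control. Here the p53 knockdown and lncRNA-OIS1 knockdown replicate 4 were below senescent cells while the other knockdown libraries were above them.

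None of the 3 RNA helicases passed the test in any comparison. DDX58 encodes RIG-I, a sensor of viral RNA, and stood at 612.4, 693, 497.6 and 413.3 with lncRNA-OIS1 knockdown, 524 with p53 knockdown and 843.8 with BRD7 knockdown, against 490.2 and 574.3 in senescent cells and 304.2 in the control. It was the gene with the highest positive difference between senescent cells and the control, 0.80 ± 0.32, which was not called (adjusted p = 0.148). DHX58, a RIG-I relative that lacks the signalling domains, ran the other way, at 149.1, 116.6, 204.6 and 75.9 with lncRNA-OIS1 knockdown, 97.7 with p53 knockdown and 201.2 with BRD7 knockdown, against 120.7 and 118.6 in senescent cells and 271 in the control. DDX60, a further antiviral helicase, stood at 406.6, 400.3, 382.1 and 201.9 with lncRNA-OIS1 knockdown, 300 with p53 knockdown and 408.1 with BRD7 knockdown, against 206.3 and 241.2 in senescent cells and 296.6 in the control. The 2 genes that act on double-stranded RNA directly also passed the test in no comparison. EIF2AK2, the kinase PKR that halts translation, stood between 1745.7 and 2686.8 in the 6 knockdown libraries, at 2334.1 and 2358.9 in senescent cells and at 2372.2 in the control. ADAR, which edits adenosines in such RNA, stood between 4102.7 and 5536.6 in the knockdowns, at 4727.2 and 4445 in senescent cells and at 5150 in the control. For both genes the knockdown libraries overlapped the senescent ones.

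ISG15 is a ubiquitin-like protein that is joined to other proteins by UBE2L6 and HERC5 and removed by USP18. ISG15 itself stood at 227, 192.1, 108 and 182.6 with lncRNA-OIS1 knockdown, 150.1 with p53 knockdown and 245.2 with BRD7 knockdown, against 170.1 and 206 in senescent cells and 207.4 in the control, and its groups overlapped. HERC5, the ligase that attaches ISG15 in human cells, stood at 135.8, 167.3, 153.6 and 57.8 with lncRNA-OIS1 knockdown, 157.4 with p53 knockdown and 208.4 with BRD7 knockdown, against 47.7 and 55.3 in senescent cells and 51.7 in the control. The control lay between the senescent libraries, and 5 of the 6 knockdown libraries stood well above all 3, with replicate 4 just above them. HERC5 differed from senescent cells by 1.21 ± 0.46 with lncRNA-OIS1 knockdown (log2, adjusted p = 0.204), and without replicate 4 by 1.56 (adjusted p = 0.0469). USP18, which removes ISG15 and also damps the interferon receptor, stood at 99.2, 141.1, 97.6 and 114 with lncRNA-OIS1 knockdown, 107.4 with p53 knockdown and 155.6 with BRD7 knockdown, against 66.8 and 73.3 in senescent cells and 60.2 in the control. All 6 knockdown libraries were thus above senescent cells and control alike, and the lncRNA-OIS1 difference from senescent cells was 0.67 ± 0.19 (adjusted p = 0.129). UBE2L6, the conjugating enzyme, stood at 1079.9, 985, 1233.7 and 858.7 with lncRNA-OIS1 knockdown, 891.2 with p53 knockdown and 1008.9 with BRD7 knockdown, against 1012.3 and 1042 in senescent cells and 767.2 in the control. HERC6, a relative of HERC5, stood between 177.7 and 258.9 in the 6 knockdown libraries, at 121.8 and 159.8 in senescent cells and at 201.9 in the control.

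MX1 and MX2 encode GTPases that trap incoming viral nucleocapsids. MX1 stood at 30.6, 34.3, 32.3 and 37.8 with lncRNA-OIS1 knockdown, 20.1 with p53 knockdown and 42.6 with BRD7 knockdown, against 20 in both senescent libraries and 43.9 in the control. MX2 stood at 27, 20, 20 and 27.4 with lncRNA-OIS1 knockdown, 20 with p53 knockdown and 53.3 with BRD7 knockdown, against 20 in both senescent libraries and 55.1 in the control. Both genes reached the entry value only in the control and the BRD7 knockdown. In senescent cells MX1 was called at least 2.19-fold lower (adjusted p = 0.0224) and MX2 at least 2.76-fold lower (adjusted p = 0.0277) than in the control. Both senescent values were floor values, and neither gene entered the test when a mean value of 80 was required. MX2 was also called lower with lncRNA-OIS1 knockdown than in the control (log2 difference -1.24 ± 0.25, adjusted p = 0.0361).

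The IFITM proteins sit in membranes and hinder viral entry, and BST2, or tetherin, holds budding virions at the cell surface. IFITM3 stood at 2995.7, 3342.4, 2890.6 and 2699.3 with lncRNA-OIS1 knockdown, 2183.7 with p53 knockdown and 3296.3 with BRD7 knockdown, against 3564.3 and 3720.4 in senescent cells and 5242.4 in the control. It was the gene for which all 6 knockdown libraries lay below both senescent libraries, which in turn lay below the control. IFITM3 fell by 0.82 ± 0.13 with lncRNA-OIS1 knockdown relative to the control (log2, adjusted p = 0.0197), and its difference between p53 knockdown and senescent cells was -0.74 ± 0.14 (adjusted p = 0.0556). IFITM2 stood at 1176.8, 1559.7, 1228.7 and 1410.2 with lncRNA-OIS1 knockdown, 1166.8 with p53 knockdown and 1606.8 with BRD7 knockdown, against 1541.3 and 1579.3 in senescent cells and 2506.4 in the control. IFITM2 was also called lower with lncRNA-OIS1 knockdown than in the control (-0.91 ± 0.17, adjusted p = 0.0299). IFITM1 stood between 207.4 and 362.6 in the knockdowns, at 276.2 and 315.4 in senescent cells and at 425.4 in the control. The IFITM genes share long stretches of near-identical sequence, so reads could be split between them and each value is uncertain. BST2 stood at 53.3, 31.3, 32.9 and 28.6 with lncRNA-OIS1 knockdown, 20 with p53 knockdown and 59.4 with BRD7 knockdown, against 20 in both senescent libraries and 58.9 in the control. It was at least 2.94-fold lower in senescent cells than in the control (adjusted p = 0.0525), and the p53 knockdown stayed at the floor.

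RSAD2, or viperin, makes a chain-terminating nucleotide, and CMPK2 is the neighbouring gene that supplies its precursor. RSAD2 stood at 31.7, 41.3, 20 and 20.9 with lncRNA-OIS1 knockdown, 20 with p53 knockdown and 76 with BRD7 knockdown, against 20 in both senescent libraries and 20 in the control. CMPK2 stood at 33.6, 20, 25.4 and 72.3 with lncRNA-OIS1 knockdown, 20 with p53 knockdown and 27.8 with BRD7 knockdown, against 20 in both senescent libraries and 20 in the control. RSAD2 was highest with BRD7 knockdown, at least 3.8-fold above the senescent floor, and CMPK2 was highest in lncRNA-OIS1 knockdown replicate 4. Neither was called in any comparison.

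PML and SP100 build nuclear bodies, and the TRIM proteins are ubiquitin ligases. TRIM22 showed the opposite pattern to most of the set, at 1319.8, 1167.2, 1504.1 and 378.2 with lncRNA-OIS1 knockdown, 327.4 with p53 knockdown and 808 with BRD7 knockdown, against 1501.6 and 1516.9 in senescent cells and 1078 in the control. It is also known as a p53 target gene. The p53 knockdown and replicate 4 of the lncRNA-OIS1 knockdown were the lowest libraries, and senescent cells were at the top together with replicate 3. Its log2 difference from senescent cells was -2.20 ± 0.82 with p53 knockdown (adjusted p = 0.165) and, without replicate 4, the same difference was called (adjusted p = 0.0234). TRIM21, a cytosolic antibody receptor, stood at 452.2, 445.2, 507.4 and 478.4 with lncRNA-OIS1 knockdown, 409.7 with p53 knockdown and 468.9 with BRD7 knockdown, against 334.9 and 294 in senescent cells and 316.8 in the control. All 6 knockdown libraries lay above the other 3, and the lncRNA-OIS1 difference from senescent cells was 0.58 ± 0.11 (adjusted p = 0.0827). SP100 stood at 1586.8, 1693.8, 1289.8 and 1285.2 with lncRNA-OIS1 knockdown, 1648.9 with p53 knockdown and 1779 with BRD7 knockdown, against 1298.1 and 1341.4 in senescent cells and 1400.4 in the control. PML stood at 810, 688.7, 738.1 and 643.8 with lncRNA-OIS1 knockdown, 530.7 with p53 knockdown and 682.8 with BRD7 knockdown, against 736.1 and 759.3 in senescent cells and 759.3 in the control. Neither nuclear body gene was called in any comparison.

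PARP9 and DTX3L form a complex that modifies histones and boosts interferon target genes, and PARP14 is a related enzyme. DTX3L stood at 562.3, 746.6, 636.2 and 591 with lncRNA-OIS1 knockdown, 528.8 with p53 knockdown and 810 with BRD7 knockdown, against 426.7 and 452 in senescent cells and 833.3 in the control. DTX3L fell by 0.92 ± 0.19 in senescent cells relative to the control (log2, adjusted p = 0.0338), and every knockdown library lay between the senescent libraries and the control. PARP9 stood at 443.2, 437.2, 387.4 and 343.4 with lncRNA-OIS1 knockdown, 298 with p53 knockdown and 441 with BRD7 knockdown, against 271.7 and 238.9 in senescent cells and 402.2 in the control. PARP14 stood at 1456.8, 1346.6, 1337.4 and 955 with lncRNA-OIS1 knockdown, 976 with p53 knockdown and 1194 with BRD7 knockdown, against 855 and 954.4 in senescent cells and 1429.2 in the control. All 3 genes were lowest in a senescent library, and the PARP9 difference between lncRNA-OIS1 knockdown and senescent cells was 0.65 ± 0.15 (adjusted p = 0.0919).

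SAMD9 and SAMD9L are neighbouring genes for antiviral proteins that restrain translation. SAMD9 stood at 563.3, 747.1, 525.3 and 1214.6 with lncRNA-OIS1 knockdown, 593.1 with p53 knockdown and 726.6 with BRD7 knockdown, against 275.6 and 250.9 in senescent cells and 661.8 in the control. SAMD9L stood at 1348.6, 1348.9, 1554.4 and 600.2 with lncRNA-OIS1 knockdown, 989.2 with p53 knockdown and 1309.9 with BRD7 knockdown, against 988.2 and 1005.4 in senescent cells and 1044.2 in the control. Replicate 4 of the lncRNA-OIS1 knockdown thus had the highest SAMD9 and the lowest SAMD9L of the 9 libraries. SAMD9 differed from senescent cells by 1.45 ± 0.36 with lncRNA-OIS1 knockdown (log2, adjusted p = 0.102).

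The remaining genes include XAF1, a pro-apoptotic protein, and IFI6, which protects cells from flavivirus replication. XAF1 stood at 449.1, 368.9, 307.2 and 244.8 with lncRNA-OIS1 knockdown, 204.8 with p53 knockdown and 412.6 with BRD7 knockdown, against 158.2 and 165.1 in senescent cells and 487.2 in the control. XAF1 fell by 1.59 ± 0.36 in senescent cells relative to the control (log2, adjusted p = 0.0408), and its difference between lncRNA-OIS1 knockdown and senescent cells was 1.05 ± 0.25 (adjusted p = 0.1). IFI6 stood at 712.8, 375, 168.6 and 156.8 with lncRNA-OIS1 knockdown, 133.1 with p53 knockdown and 484.8 with BRD7 knockdown, against 156.9 and 237.8 in senescent cells and 533.9 in the control. Replicates 1 and 2 of the lncRNA-OIS1 knockdown and the BRD7 knockdown were above senescent cells, while replicates 3 and 4 were within or just under their range. IFI44 stood at 218.3, 293.8, 319.6 and 88.8 with lncRNA-OIS1 knockdown, 270.1 with p53 knockdown and 332.8 with BRD7 knockdown, against 114.8 and 153.1 in senescent cells and 136.1 in the control. For IFI44 the control lay between the senescent libraries, as for HERC5, and 5 of 6 knockdown libraries were above all 3.

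**Figure D3:**
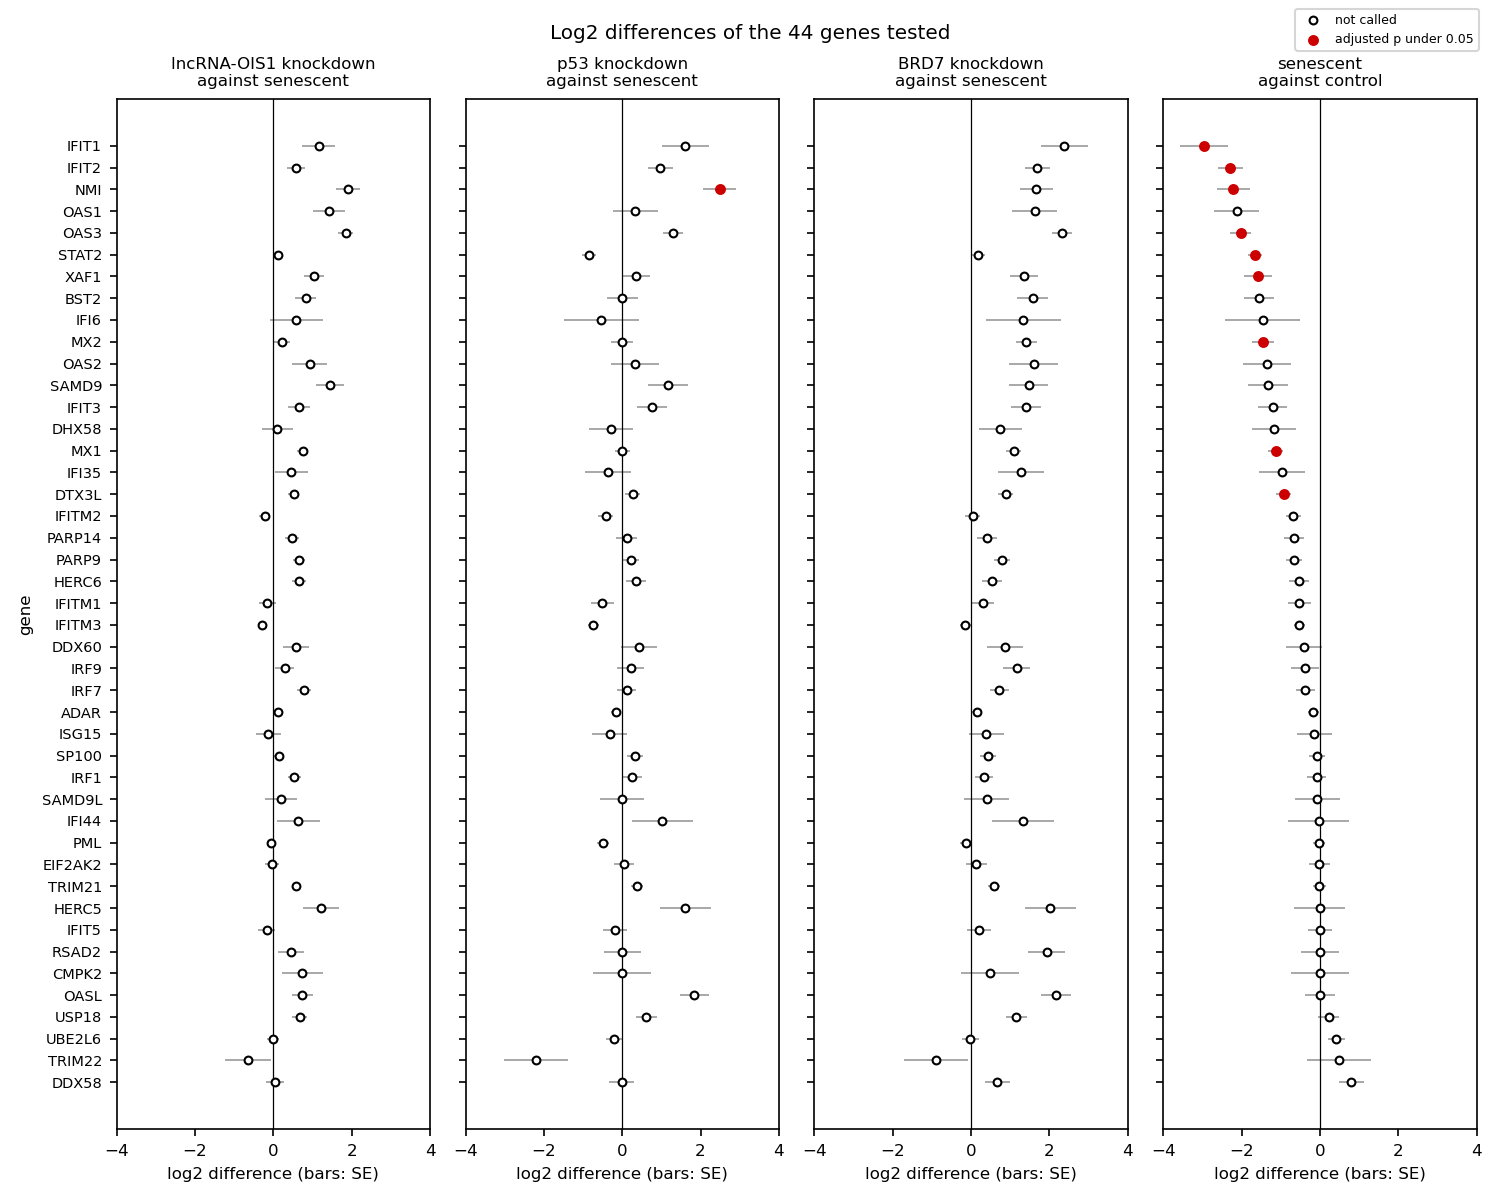
Log2 differences of the 44 tested genes (rows, ordered by senescent minus control) in 4 comparisons; points are differences of group means of log2 values, bars are standard errors and filled points have an adjusted p under 0.05. The 9 called genes of the senescent against control panel lie between -2.96 and -0.92, and NMI at 2.49 is the filled point of the p53 knockdown panel.

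Compared with the control rather than with senescent cells, lncRNA-OIS1 knockdown left 5 of 44 genes called lower (IFIT2, STAT2, MX2, IFITM2 and IFITM3), beside 5.83% of all genes. The count called higher was 0, beside 5.38%. At an unadjusted p under 0.05 there were 10 of 44, beside 29.3% of all genes. MX2 entered the test only through the control and the BRD7 knockdown, so its call follows in part from the filter. Among the 35 genes with a mean of 80 or more, which leaves out MX2, 4 were called lower, beside 5.24% of all genes so filtered. All 4 lncRNA-OIS1 knockdown libraries lay below the control for 16 of 44 genes, beside 28.7% of all genes, and above it for 8, beside 32.1%. Those above the control were HERC5, USP18, TRIM21, DDX58, IRF1, IRF7, OASL and UBE2L6. OASL sat at the floor in the control and entered the test only through the knockdown groups. The median log2 difference, lncRNA-OIS1 knockdown minus control, was -0.16, beside 0.05 over all genes. Without senescent replicate 1, and likewise without senescent replicate 2, 1 of 44 was called lower, beside 1.9% and 1.89% of all genes. With lncRNA-OIS1 knockdown replicate 3 left out, 2 were called lower and 1 higher, beside 4.15% and 3.52% of all genes. Without lncRNA-OIS1 knockdown replicate 4, 6 were called lower, beside 11% of all genes, and DDX58, IRF1 and HERC5 were called higher, beside 11.6%.

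The knockdowns were also set against each other. Between lncRNA-OIS1 knockdown and p53 knockdown 0 of 44 were called in limma, as were 0.00801% of all genes in the higher direction and 0% in the lower, and 6 of 44 had an unadjusted p under 0.05, beside 10.6% of all genes. All 4 lncRNA-OIS1 knockdown libraries lay above the p53 knockdown for 18 of 44 genes, beside 19.3% of all genes, and below it for 3 (IFIT2, NMI and OASL), beside 24.8%. TRIM22 (1.56 ± 0.75, adjusted p = 0.504) and STAT2 (0.97 ± 0.16, adjusted p = 0.374) were among those above it. Between lncRNA-OIS1 knockdown and BRD7 knockdown 0 of 44 were called in limma, as were 0.00801% of all genes in the higher direction and 0% in the lower, and 5 of 44 had an unadjusted p under 0.05, beside 2.74% of all genes. All 4 lncRNA-OIS1 knockdown libraries lay below the BRD7 knockdown for 22 of 44 genes, beside 14.8% of all genes, and above it for 0, beside 14.9%. IRF9, MX1 and MX2 were among the 22 and entered the test through the BRD7 knockdown but not through the lncRNA-OIS1 knockdown. The median log2 difference was 0.28 against p53 knockdown and -0.32 against BRD7 knockdown, where it was -0.02 and 0.00 over all genes.

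The 4 lncRNA-OIS1 hairpins differed among themselves. Replicate 1 lay above both senescent libraries for 93.18% of the 44 genes, replicate 2 for 72.73%, replicate 3 for 65.91% and replicate 4 for 56.82%. The BRD7 knockdown lay above both for 90.91%, the p53 knockdown for 56.82% and the control for 72.73%. Over all genes tested these shares ran from 38.96% to 43.51%. Replicate 4 lay below all of replicates 1 to 3 for 28 of 44 genes (63.64%), beside 33.83% of all genes, and above all of them for 5 (11.36%), beside 36.29%. TRIM22, SAMD9L, IFI44, HERC5 and IFIT5 were among the genes with the lowest values in replicate 4, and SAMD9 and CMPK2 were among the exceptions with the highest.

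**Figure D4:**
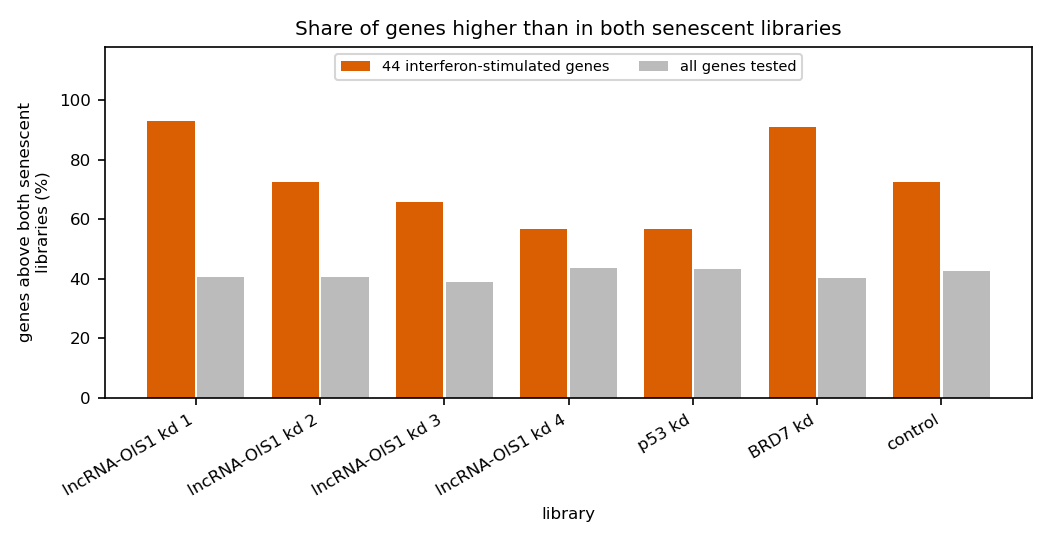
Share of genes (vertical axis, percent) whose value is higher than in both senescent libraries, for the 44 interferon-stimulated genes tested (orange) and all 12481 genes tested (grey), in each of the other 7 libraries. The orange bars run from 56.82% to 93.18% and the grey bars from 38.96% to 43.51%.

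Genes with and without the longer ISRE letters in the printed window can be set side by side, as a description. The 19 tested genes whose promoter held GAAANNGAAA had a median log2 difference of 0.59 for lncRNA-OIS1 knockdown minus senescent, 0.27 for p53 knockdown minus senescent, 1.09 for BRD7 knockdown minus senescent and -0.66 for senescent minus control. The 15 without these letters had medians of 0.44, 0.00, 0.53 and -0.17 in the same comparisons. OAS1, DDX58, IFI35, RSAD2 and XAF1 among them held the shorter form, so the split is by the longer form only. Genes without the longer letters still included STAT2, with neither form, and OAS1, with the shorter form. Their differences between senescent cells and the control were among the larger ones.

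Other parts of the interferon pathway were read from 4 further lists. Of 17 ligands, receptors and signalling genes 12 were tested, and IFNE was the only ligand found, at 48.7 in lncRNA-OIS1 knockdown replicate 4, 24.2 in senescent replicate 2 and the floor elsewhere. JAK1, a kinase of the interferon receptors, was the member called. It was 1 of 12 called lower in senescent cells than in the control, beside 7.1% of all genes. JAK1 stood at 3324.1, 2807.2, 3370.4 and 3086.4 with lncRNA-OIS1 knockdown, 2912.7 with p53 knockdown and 2602.8 with BRD7 knockdown, against 2534.2 and 2557.9 in senescent cells and 4517.3 in the control. It fell by 0.83 ± 0.14 in senescent cells relative to the control (log2, adjusted p = 0.0202). Among 18 tested genes of nucleic acid sensing, 2 (TLR3 and IFIH1) were called lower in senescent cells than in the control and 0 higher, beside 7.1% and 7.95% of all genes. TLR3, an endosomal sensor of double-stranded RNA, stood at 49.6, 76.2, 46.8 and 69.2 with lncRNA-OIS1 knockdown, 69 with p53 knockdown and 45.4 with BRD7 knockdown, against 20 in both senescent libraries and 119.1 in the control (adjusted p = 0.013). With senescent cells at the floor, TLR3 was at least 5.96-fold lower there than in the control. It was at least 2.34-fold higher in each lncRNA-OIS1 knockdown library and at least 3.45-fold higher with p53 knockdown than in senescent cells, neither called (adjusted p = 0.0788 and 0.0556). IFIH1, which encodes the cytosolic sensor MDA5, stood at 151, 119.9, 119.2 and 87.8 with lncRNA-OIS1 knockdown, 91.6 with p53 knockdown and 213 with BRD7 knockdown, against 41.8 and 39.7 in senescent cells and 129.4 in the control. It fell by 1.67 ± 0.33 in senescent cells relative to the control (adjusted p = 0.03), and its differences from senescent cells of 1.53 ± 0.23 with lncRNA-OIS1 knockdown (adjusted p = 0.0788) and 2.39 ± 0.33 with BRD7 knockdown (adjusted p = 0.196) were not called. With p53 knockdown, RNASEH2A, a subunit of an enzyme that clears RNA from DNA, rose by 1.94 ± 0.19 relative to senescent cells (adjusted p = 0.0467). It was 1 of the 18 called higher there, beside 2.27% of all genes. MB21D1, which encodes the DNA sensor cGAS, was called higher with lncRNA-OIS1 knockdown, at 184, 217.4, 171.1 and 163.9, than in the control, at 90.4 (1.02 ± 0.22, adjusted p = 0.0397). That was 1 of 18, beside 5.38% of all genes.

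Of 33 tested further interferon-induced genes, 2 were called lower (PLSCR1 and IFIH1, which the sensing list also holds) and 1 higher (SP110) in senescent cells than in the control, beside 7.1% and 7.95% of all genes, with a median log2 difference of -0.44. PLSCR1, a membrane protein with antiviral activity, stood at 352.2, 348.8, 279.4 and 264.1 with lncRNA-OIS1 knockdown, 313.8 with p53 knockdown and 417.8 with BRD7 knockdown, against 186.2 and 175.4 in senescent cells and 406.1 in the control (senescent minus control -1.17 ± 0.23, adjusted p = 0.0309). SP110, a nuclear body protein, ran the other way, at 331.9, 457.2, 363.9 and 306.9 with lncRNA-OIS1 knockdown, 326.7 with p53 knockdown and 600.6 with BRD7 knockdown, against 563.3 and 655 in senescent cells and 283.3 in the control (1.10 ± 0.26, adjusted p = 0.0467). With lncRNA-OIS1 knockdown 25 of these 33 genes had a log2 difference from senescent cells above 0, beside 47% of all genes, and 0 were called. The largest difference of the list with p53 knockdown, that of IFI30, was -2.22 ± 1.14 and was not called (adjusted p = 0.28), and that of IFI30 between senescent cells and the control was 2.57 ± 1.14 (adjusted p = 0.179). CXCL10, a chemokine, had the largest difference between lncRNA-OIS1 knockdown and control, with values of 131, 56.3, 215 and 20 in the 4 knockdown libraries and the floor of 20 in the control (adjusted p = 0.389). WARS, a tRNA synthetase that interferon induces, differed by -1.47 ± 0.45 in the same comparison (adjusted p = 0.0975). With BRD7 knockdown, EPSTI1 (1.59 ± 1.32, adjusted p = 0.683) and CXCL10 (1.56 ± 1.42, adjusted p = 0.72) had the largest differences from senescent cells after IFIH1. Among 9 tested negative regulators, SOCS1, which inhibits the receptor kinases, stood at 70.3, 66.6, 63.2 and 73.1 with lncRNA-OIS1 knockdown, 51.8 with p53 knockdown and 21 with BRD7 knockdown, against 20 in both senescent libraries and 28.8 in the control. It was called at least 2.59-fold higher with p53 knockdown than in senescent cells, which were at the floor (adjusted p = 0.0467). It was also called higher with lncRNA-OIS1 knockdown than in the control (1.24 ± 0.16, adjusted p = 0.0119). Over all genes, 2.27% and 5.38% were called higher in these comparisons. SOCS1 reached the entry value only in the lncRNA-OIS1 and p53 knockdowns, so it entered only through the groups where it was high. Both calls thus follow in part from the filter. SOCS1 was at least 3.16-fold above the senescent floor in each lncRNA-OIS1 knockdown library, a difference that was not called (adjusted p = 0.0788).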

How the data were processed

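The analysis started from 1 deposited gene table with 9 columns, a normalised signal per gene and library that the authors made from read counts, per the table's name. The submitters' processing notes name TopHat2, HTSeq and hg19, with neither their roles nor versions, and whether counting used strand is unknown here. The 9 columns share one set of values and none is under 20, so quantile normalisation and a floor are known from the values and the table's name. Equal distributions remove real differences in total RNA. Values were used as deposited, on a log2 scale with no pseudocount.

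limma 3.58.1 in R 4.3.3 was fitted to 12481 genes with a highest value of at least 40, with 5 groups, 4 residual degrees of freedom, a variance trend and two-sided tests adjusted over all genes by Benjamini-Hochberg. A lone library was assumed to vary like those of the replicated groups. "At least" folds use the floor of 20. The fit was tested on simulated data. Members, lists and tests were chosen with earlier results of these data known. Named were all called members, and per role the highest mean and largest differences; from other lists, called genes and the 3 largest differences. Each result was recomputed with pseudocounts of 10 and 50, without a filter, with a mean filter of 80, median-of-ratios rescaling, no trend, only the groups compared and leaving out each library of a replicated group. Numbers shared by lncRNA-OIS1 and senescent libraries mark different hairpins and pair nothing. The p53 transcript and some list genes are not reported here, and the knockdown of lncRNA-OIS1 could not be checked, since no row under that name was used here.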

Additional observations from a re-analysis of the deposited data

Results flagged for a closer look

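For 45 of the genes the 4 lncRNA-OIS1 knockdown values were examined, since IFI44L sat at the floor in all 4. The gap between an extreme library and its nearest neighbour was compared with the range of the group. In 3 of 45 the ratio was above Dixon's critical value for 4 samples. Chance gives about 1 in 20 groups. Of the 46 groups, 4 held 2 or more values tied at the floor. IFIT5 in replicate 4 was 552.9, with a ratio of 0.86. DDX60 in replicate 4 was 201.9, with a ratio of 0.88. STAT2 in replicate 2 was 966.4, with a ratio of 0.848, beside 1177.1 to 1214.9 in the other 3 replicates.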

How the results depend on the processing

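No called result changed sign under any alternative run, and the median over the genes kept its sign: -0.6 to -0.41 for senescent minus control, 0.35 to 0.65 for lncRNA-OIS1 knockdown, 0.06 to 0.23 for p53 knockdown and 0.56 to 0.85 for BRD7 knockdown minus senescent, -0.25 to -0.04 for lncRNA-OIS1 knockdown minus control, 0.24 to 0.36 minus p53 knockdown and -0.4 to -0.27 minus BRD7 knockdown. Fitting only the groups compared gave 21 called genes for senescent against control (2 higher and 19 lower, beside 21.4% and 18.6% of all genes; 9 in the full fit), 12 for p53 knockdown against senescent (27.3%, beside 27.5% of all genes; full fit 1), 7 for BRD7 knockdown against senescent (15.9%, beside 0.649%; full fit 0) and 1 for lncRNA-OIS1 knockdown against control (beside 3.16%; full fit 5). The 7 genes called for BRD7 knockdown in that fit were BST2, IRF9, MX1, MX2, OAS1, OASL and RSAD2. All 7 sat at the floor of 20 in both senescent libraries and so had no measured spread in that fit. The count therefore reflects the floor, and genes at the senescent floor carry the same limit in the other fits of senescent cells with a lone library. For p53 knockdown the count was 0 with a pseudocount of 50, 0 with no filter, 0 with no trend (2.78%, 4.06% and 0.016% of all genes) and 3 of 35 with a mean of at least 80 (beside 6.47%). For lncRNA-OIS1 knockdown against senescent it was 1 with no filter (OAS3; 0.415% of all genes). Leaving out each senescent or lncRNA-OIS1 knockdown library in turn gave 0 to 17 for senescent against control (all genes 0.994% to 29.7%), 0 to 3 for lncRNA-OIS1 knockdown against senescent (0% to 1.31%), 0 to 8 for p53 knockdown against senescent (0% to 17.2%), 0 throughout for BRD7 knockdown against senescent, 1 to 9 for lncRNA-OIS1 knockdown against control (3.18% to 22.6%), and 0 against p53 or BRD7 knockdown. The lone control, p53 and BRD7 libraries were not left out. The cause was not tested. A replicate block on replicates 1 and 2 of lncRNA-OIS1 knockdown and senescent gave 0 called genes, as did the crossed pairing and no block, both chosen after seeing the data; the numbers do not pair (r = -0.123 over 12481 genes). Of 1043 checks of single genes, 933 kept their side of the threshold, 61 gained and 49 lost a call. Most of these checks were of results not called in the full fit, and all 49 losses fell on called ones. Called results kept their call in 5 of 13 alternatives (NMI, p53 knockdown against senescent) to 13 of 13 (STAT2, lncRNA-OIS1 knockdown against control). Depth is unknown, and genes near the floor are limited by it.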
